A study of Mus musculus with 8 samples.

Results

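The miR-200 family and miR-205 were followed in serum of male C57BL/6NJcl mice that were 8 weeks old and received 7 Gy of X-rays or none. The 6 members are mmu-miR-200a-3p, mmu-miR-200b-3p, mmu-miR-200c-3p, mmu-miR-141-3p, mmu-miR-429-3p and mmu-miR-205-5p, taken by name from the 1881 mouse miRNAs of a 1-colour Agilent miRNA microarray. There were 4 non-irradiated sera (0Gy) and 4 irradiated sera (7Gy, taken at 72 h), each on 1 array with 30 ng of labelled RNA, and the time of the non-irradiated sera was not named. The labels number the sera but do not say that each came from a separate mouse, so that p-values measure the spread between these sera. All members were measured with values of every size, including those under the cut-off of 100 that the study's methods applied to array signals.

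The miR-200 family and miR-205 are abundant in epithelial cells and scarce in mesenchymal cells. They repress the transcripts of Zeb1 and Zeb2, which are transcription factors that silence E-cadherin, and so help to keep cells in an epithelial state. Zeb1 and Zeb2 in turn repress the miR-200 genes. In serum, miRNAs of this kind come from cells elsewhere in the body, and a serum signal cannot tell fewer releasing cells from less miRNA released per cell.

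A miRNA finds its targets mainly through its seed, bases 2 to 8 from the 5′ end. The mature sequences of RefSeq, of which all 6 members had an entry on mouse build GRCm38.p6, are shown because the family splits into seed groups that differ at a single base of the seed. The seed is in capitals.
miR-200a-3p: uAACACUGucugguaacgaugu
miR-141-3p: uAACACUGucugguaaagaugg
miR-200b-3p: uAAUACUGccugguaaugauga
miR-200c-3p: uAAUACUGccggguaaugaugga
miR-429-3p: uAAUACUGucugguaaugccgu
miR-205-5p: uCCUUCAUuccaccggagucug

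The first seed is shared by miR-200a-3p and miR-141-3p, and the second by miR-200b-3p, miR-200c-3p and miR-429-3p. miR-205-5p has a seed of its own and belongs to the same functional group without being a relative in sequence. No other of the 1679 mature mouse miRNAs in the table carries any of these seeds. Over 22 bases, miR-200a-3p and miR-141-3p differed at 2 positions, and so did miR-200b-3p and miR-200c-3p. miR-205-5p differed from the miR-200 members at 15 to 17 positions. Cross-hybridisation between such close sequences was not tested here, as no probe sequences were used.

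The genes lie at 3 places of the genome. Mir200b, Mir200a and Mir429 lie within 1846 bases on the minus strand of chromosome 4 (hairpins from 156053905 to 156055750), where they overlap the long non-coding RNA gene Gm13648. Mir200c and Mir141 lie within 477 bases on the minus strand of chromosome 6 (124717914 to 124718390), between Phb2 and Ptpn6 and in neither. Mir205 lies on the minus strand of chromosome 1 (193507463 to 193507530) in the long non-coding RNA gene Mir205hg. Seed group and gene cluster therefore cross, because each cluster holds members of both miR-200 seeds. The hairpins of Mir200c and Mir205 are shown because the measured arm, in capitals, lies on opposite sides of the loop.
Mir200c hairpin, chr6:124718322-124718390, minus strand: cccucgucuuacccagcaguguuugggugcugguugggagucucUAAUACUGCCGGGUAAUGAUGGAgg
Mir205 hairpin, chr1:193507463-193507530, minus strand: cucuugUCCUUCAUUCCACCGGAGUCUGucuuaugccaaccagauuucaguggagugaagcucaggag

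The arrays differed in ways that touch every value below. All 8 shared 1 slide and 1 scan, with 0Gy in slide columns 1 and 2 and 7Gy in columns 3 and 4, and the column cannot be told apart from the group. Between 531 and 603 miRNAs were detected on the 0Gy arrays, and 7Gy replicates 1 to 4 had 379, 687, 378 and 567. The labelling spike-in, an RNA added before labelling, had a log10 signal of 2.73 to 3.68 on the 0Gy arrays, with 7Gy replicate 2 at 3.35. For 7Gy replicates 1, 3 and 4 the signal was 2.31, 1.95 and 1.97, which the scanner software placed out of range. The hybridization spike-in, added later, was in range on all 8 arrays. Its log10 signal was 4.34 to 4.51 on the 0Gy arrays and 4.27, 4.43, 3.88 and 4.08 on 7Gy replicates 1 to 4. On 7Gy replicates 1, 3 and 4 this signal too was below that of every 0Gy array. Scaling brought the 90th percentile of the mouse miRNAs to the same value on every array. The factor was 4.33 for 7Gy replicate 1, 4.63 for 7Gy replicate 3 and 0.379 to 1.06 elsewhere.

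In non-irradiated serum the miR-200 members were detected unevenly, and in irradiated serum nearly all of their signal was on 1 array. The scanner software calls a miRNA detected when its signal stands clear of its error. Of the 5 miR-200 members, 5, 5, 2 and 4 were called detected on 0Gy replicates 1 to 4. On the irradiated arrays the number was 0, 5, 0 and 1 in the same order. miR-205-5p was detected on all 8 arrays. In 7Gy serum, 7Gy replicate 2 was thus the array that carried the family. It was also the irradiated array with the most miRNAs detected and with its labelling spike-in in range. Detection on 7Gy replicate 2 and on no other irradiated array held for 4 of the 6 members, and for 125 of 620 miRNAs (20.2%) detected on at least 2 of the 0Gy arrays, as all members were. Among miRNAs detected on all 4 of the 0Gy arrays the share was 12.6%, and 1 of 3 members there had this pattern.

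Among the members with the second seed, miR-200b-3p had scaled signals of 61.2, 53.9 and 5.53 on 0Gy replicates 1, 2 and 4 and was not detected on 0Gy replicate 3. At 7Gy it had 45.9 on replicate 2 and was not detected on the other 3 arrays. The irradiated value lay inside the range of the non-irradiated ones. miR-200c-3p was the only member besides miR-141-3p and miR-205-5p to be detected on all 0Gy arrays, with scaled signals of 42.9, 50.2, 4.60 and 21.3. At 7Gy it had 24.1 on replicate 2 and was not detected elsewhere. miR-429-3p had 50.7, 33.3 and 11.9 on 0Gy replicates 1, 2 and 4. Among irradiated arrays it had 35.1 on replicate 2. There was no detection on 0Gy replicate 3 or on 7Gy replicates 1, 3 and 4.

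Among the members with the first seed, miR-200a-3p was the one least often detected, with scaled signals of 50.1 and 9.47 on 0Gy replicates 1 and 2. Among irradiated arrays it was detected on replicate 2, at 29.6. miR-141-3p had 23.2, 37.7, 28.5 and 2.30 on 0Gy replicates 1 to 4. At 7Gy it was detected on replicate 2 with 63.9 and on replicate 4 with 1.98. Its value on 7Gy replicate 2 was 1.70 times the highest 0Gy value, whereas the other 4 miR-200 members had 0.48 to 0.75 times their highest 0Gy value on that array. On 0Gy replicate 3, which had the lowest labelling signal of its group, miR-141-3p stayed at the level of 0Gy replicates 1 and 2. There miR-200c-3p was near its lowest and the other 3 were not detected. The lowest scaled signal of any detected miRNA was 3.14 on 7Gy replicate 1, 3.17 on 7Gy replicate 3 and 0.843 on 7Gy replicate 4, against 0.519 to 1.42 on the 0Gy arrays.

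**Figure D1:**
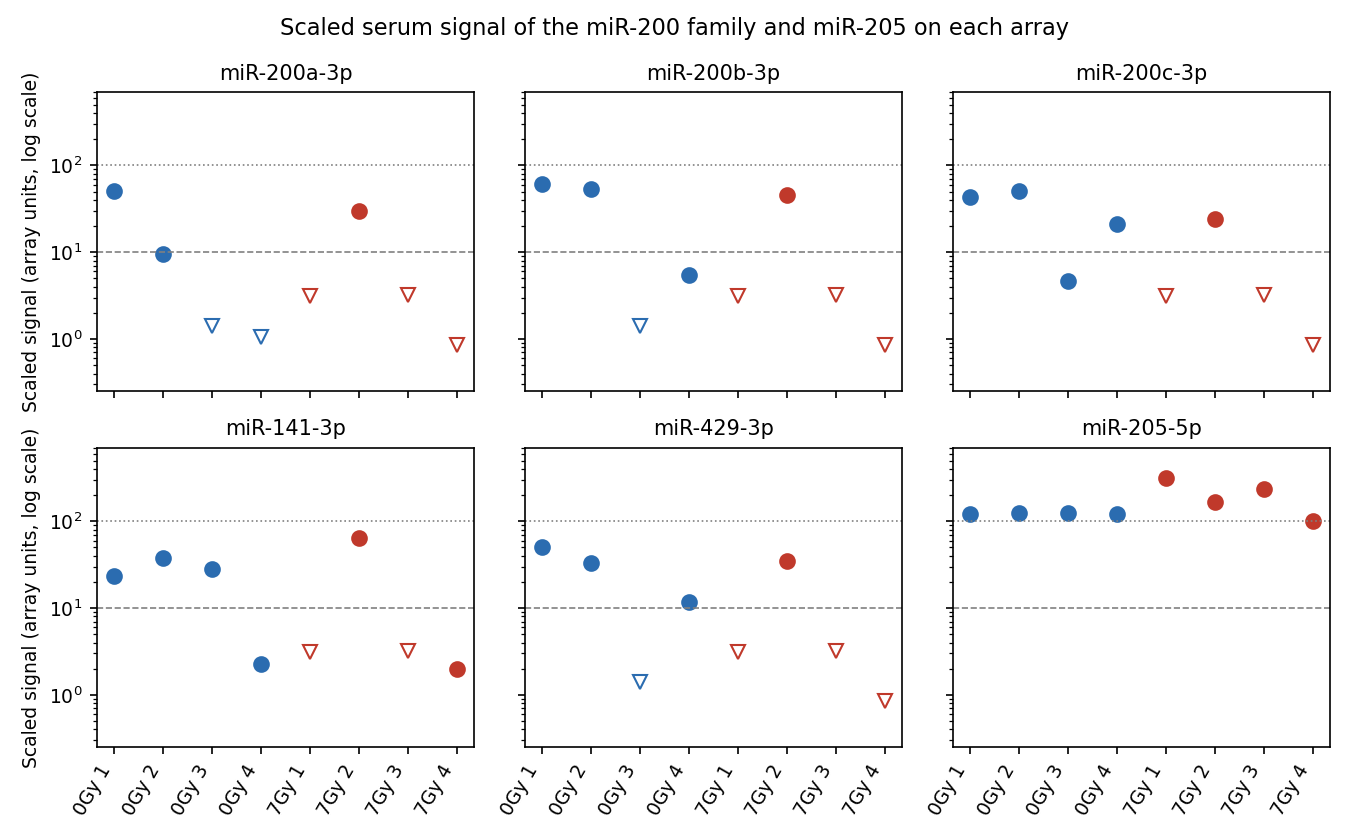
Scaled signal of each member on each array (y axis, log scale, array units), with 0Gy in blue and 7Gy in red. Filled points are miRNAs called detected, open triangles are arrays where the miRNA was not detected, drawn at the lowest signal of any detected miRNA there, and the lines mark the floors of 10 (dashed) and 100 (dotted). The 5 miR-200 members have 1 filled 7Gy point above the floor of 10, on replicate 2, whereas miR-205-5p is filled on all 8 arrays and lies between 100.3 and 314.

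No member passed the test between groups. With scaled values under 10 set to 10, limma called 28 of 513 miRNAs (5.46%, adjusted p under 0.05), and 0 of the 6 members. The count over all miRNAs rested on single arrays, as it was 162 without 7Gy replicate 2, 0 without 7Gy replicate 1 or 3, 1 without 0Gy replicate 2, and 2 to 9 without any of the other 4. No member was called in these fits. At an unadjusted p under 0.05 it called 144 (28.1%) and again 0 members, and the methods' t-test called 0 members with or without adjustment. The groups overlapped for every member. The log2 fold change of miR-200c-3p was −1.06 (standard error 0.57, adjusted p = 0.278 from limma), with a 95% interval from −2.38 to 0.26. For miR-200b-3p it was −0.71 (standard error 0.82), for miR-429-3p −0.63 (standard error 0.66), for miR-141-3p −0.49 (standard error 0.71) and for miR-200a-3p −0.19 (standard error 0.64), with adjusted p from 0.495 to 0.823 (limma). For each of the 5, 3 irradiated arrays and 1 to 3 non-irradiated arrays lay on the floor, so that these sizes depend on it. By two-sided exact permutation tests over 70 arrangements, p was 0.257 for miR-200c-3p and 0.371 to 1 for the other miR-200 members, where 4 arrays against 4 can reach 0.0286. The mean was lower at 7Gy for 5 of the 6 members and for 33.3% of all 513 miRNAs. The median log2 fold change was −0.56 over the members and 0.34 over all.

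At the floor of 100 from the methods, the 5 miR-200 members could not be tested, as each lay under 100 on all 8 arrays after scaling. mmu-miR-205-5p was the only member among the 208 miRNAs tested there, of which 8 (3.85%) were called by limma. The count was 70 without 7Gy replicate 2 and 1 to 4 without any other single array, and mmu-miR-205-5p was not called in these fits.

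The direction of the miR-200 values changed with the irradiated arrays that entered and with adjustment for the labelling signal. Without 7Gy replicate 2 the log2 fold changes of the 5 members ran from −0.58 for miR-200a-3p to −1.38 for miR-200c-3p, with 0 members called (smallest adjusted p = 0.0931, miR-141-3p, limma) against 31.6% of all 513 miRNAs. On the 5 arrays whose labelling spike-ins were in range, of which 7Gy replicate 2 was the only irradiated one, the log2 fold change was 1.52 for miR-141-3p, 0.98 for miR-200a-3p, 0.94 for miR-200b-3p, 0.73 for miR-429-3p and −0.11 for miR-200c-3p. With the signal of the labelling spike-in as covariate, all 5 were above 0, from 0.15 for miR-200c-3p to 1.02 for miR-200b-3p. On 7Gy replicates 1, 3 and 4 that signal was lower than on every 0Gy array. Labelling can thus hardly be told apart from the group in the covariate fit, where 7Gy replicate 2 was the only irradiated array within the 0Gy range. None of the 5 was called in either setting (limma, smallest adjusted p = 0.606), where 2.34% of all miRNAs were called on the arrays in range and 0% with the covariate.

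The scaling shifted the median over all miRNAs, and the miR-200 members did not always follow it. With the 75th percentile the median log2 fold change was 1.365, whereas miR-200b-3p stayed at −0.71. Under 8 settings of scaling or background correction, the median log2 fold change over all miRNAs moved by −0.42 to 1.03 from that of the reported scaling. Relative to that median, the log2 fold change of all 5 miR-200 members was below 0 under each of the 8, between −2.26 and −0.32. With the reported scaling, 7Gy replicate 2 was the only irradiated array above the floor for these members. Their distance from the median therefore partly follows the median alone, and is no separate check of their direction. Relative to the median they lay at 0.10 to 0.98 with the labelling spike-in covariate. On the arrays in range, with 7Gy replicate 2 as the only irradiated array, they lay at −0.11 to 1.52. In absolute terms miR-200b-3p, miR-200c-3p and miR-429-3p were below 0 under all 8, while miR-141-3p and miR-200a-3p turned to 0.12 and 0.092 with labelling spike-in scaling.

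**Figure D2:**
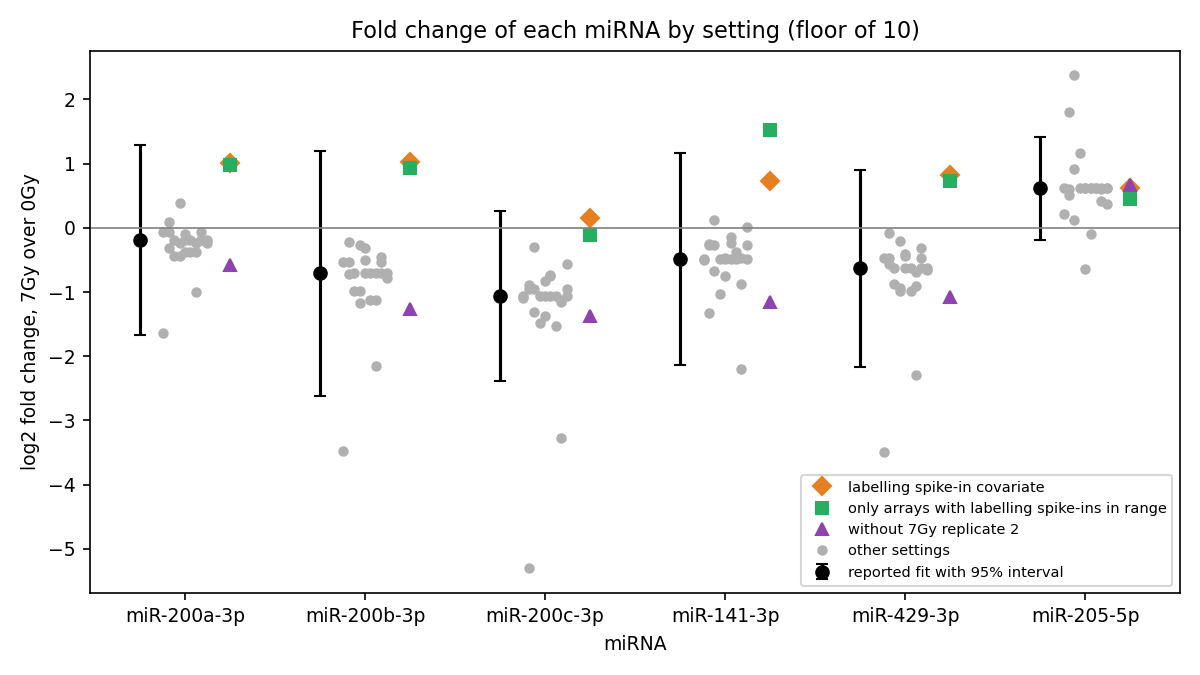
Log2 fold change of each member, 7Gy over 0Gy (y axis), from the fit with scaled values under 10 set to 10. Black points are the reported values with 95% intervals, coloured points the labelling spike-in covariate, the arrays in range for these spike-ins and the fit without 7Gy replicate 2, and grey points the other settings, with single slide rows left out. All black intervals cross 0. The miR-200 members lie below 0 without 7Gy replicate 2 and, except for miR-200c-3p on the arrays in range, above 0 with the other coloured settings, and miR-205-5p lies below 0 with no scaling and with normexp.

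The spots of single probes show what lay under the detection calls. Each member was measured by 2 probes of 15 spots each, 12 probes in all. On 7Gy replicate 2 all 10 miR-200 probes had every spot well above background, with mean spot signals before scaling of 78.9 to 516. On 7Gy replicates 1, 3 and 4 the same probes had 0 of 450 spots well above background, and their means ran from −2.81 to 9.30 after background subtraction. The brighter probe of miR-200c-3p had mean spot signals of 266 ± 17.7, 263 ± 12.2, 15.5 ± 2.73 and 53.7 ± 3.65 on 0Gy replicates 1 to 4 (SD over spots). On 7Gy replicates 1 to 4 it had −2.26 ± 1.66, 147 ± 9.33, −1.43 ± 1.54 and −2.06 ± 1.76 (SD over spots). Every 0Gy array was thus above 3 of the 7Gy arrays, and 7Gy replicate 2 lay between the 2 brighter and the 2 dimmer 0Gy arrays.

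The brighter probe of miR-141-3p behaved differently on the dim arrays. On 0Gy replicates 1 to 4 its mean spot signal was 181 ± 10.4, 245 ± 16.4, 81.0 ± 3.55 and 8.81 ± 1.75 (SD over spots). The irradiated arrays, in the same order, gave 5.15 ± 0.89, 516 ± 34.0, 1.81 ± 1.55 and 9.30 ± 2.50 (SD over spots). It was highest on 7Gy replicate 2, and 0Gy replicate 4 lay with the dim irradiated arrays. The 2 probes of a member moved alike where both stood clear of background: the ratio of the probes was 4.03 to 4.32 over 3 arrays for miR-200b-3p, 1.84 to 1.94 over 3 arrays for miR-200a-3p, 1.86 to 2.05 over 4 arrays for miR-200c-3p and 0.968 to 1.09 over 4 arrays for miR-429-3p. For miR-141-3p it was 4.58 to 6.25 over 3 arrays.

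In a fit of single probes, limma called 0 of 2371 probes (0%) at an adjusted p under 0.05 and 508 (21.4%) at an unadjusted p under 0.05, and after adjustment the methods' t-test called 3 higher and 1 lower. No probe of a member was called by either. At an unadjusted p under 0.05, 4 of the 12 member probes were lower, which were both probes of miR-200c-3p and both of miR-429-3p, against 8.69% of all probes. The log2 fold changes of the 10 miR-200 probes lay between −5.56 and −1.10, and the adjusted p of the 12 probes between 0.0982 and 0.575 (limma). Signals under 5 were set to 5 in this fit, which is within the noise of dark probes, so that the sizes are set partly by noise. A floor of 200, chosen once the data had been seen, gave the miR-200c-3p probes log2 fold changes of −0.98 and −1.57 in place of −4.77 and −5.56. Where labelling spike-ins were in range, the first of them had 0.098 and the second −0.019. Without 7Gy replicate 2, 5 of the 12 probes were called, all lower. Of all 2371 probes, 8.56% were called lower and 518 in either direction. The irradiated arrays left in that fit had labelling spike-ins out of range. On them, 0 of 450 miR-200 spots stood well above background, so that lower values were largely set by the arrays kept. The 2 probes of a member measure the same miRNA, so that these calls are not independent.

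**Figure D3:**
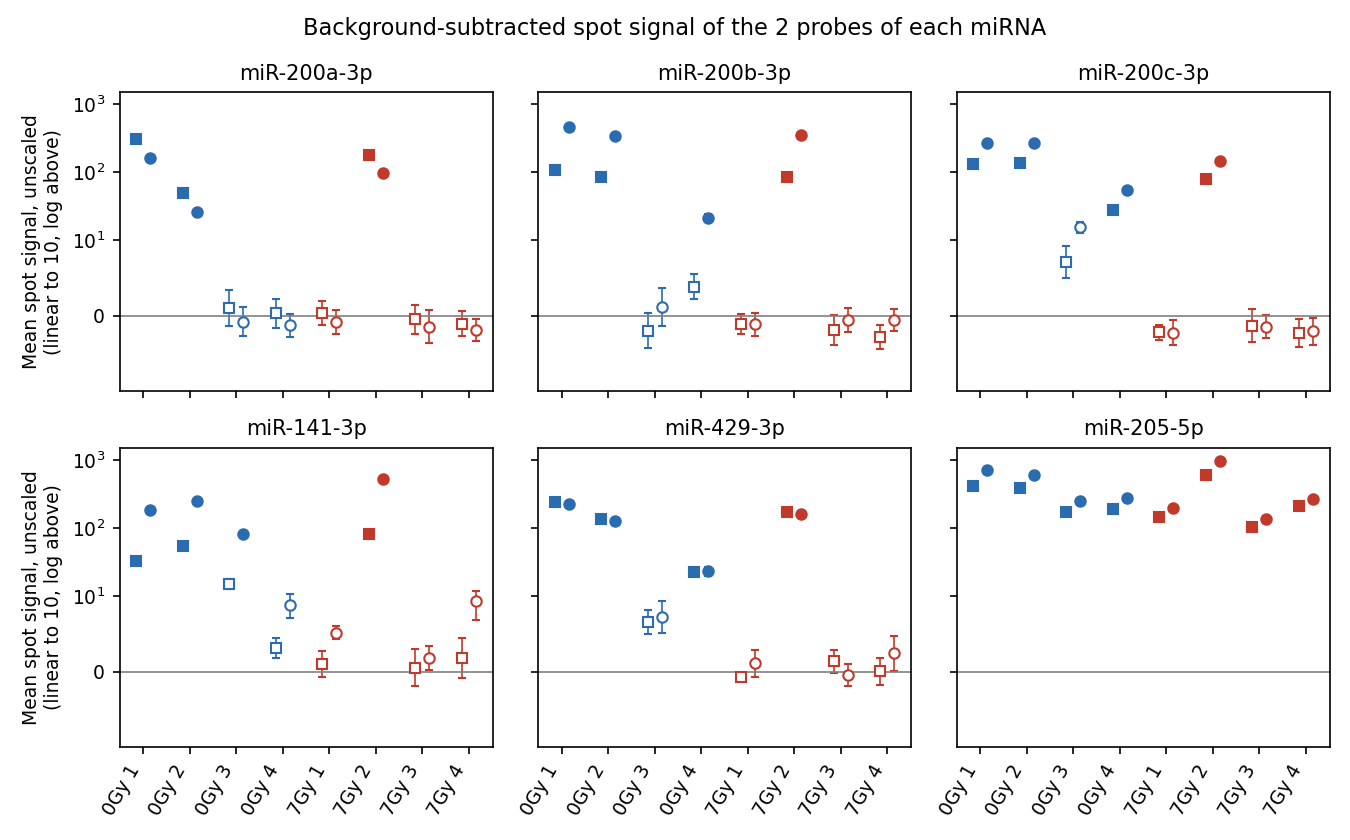
Mean spot signal before scaling (y axis, linear up to 10 and logarithmic above) of the 2 probes of each member, squares and circles, on each array, with 0Gy in blue and 7Gy in red. Bars are SD over up to 15 spots, and filled symbols have all spots well above background. The miR-200 probes lie around 0 on 7Gy replicates 1, 3 and 4, between −2.81 and 9.30, and from 78.9 to 516 on 7Gy replicate 2, whereas both miR-205-5p probes are filled on all 8 arrays.

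miR-205-5p, a miRNA of squamous and glandular epithelium, had scaled signals of 122, 123, 123 and 120 on 0Gy replicates 1 to 4. On 7Gy replicates 1 to 4 it had 314, 168, 233 and 100.3. It was above every 0Gy array on 3 of the 4 irradiated arrays and below every 0Gy array on 7Gy replicate 4, so that the groups overlapped. The mean was 122 ± 1.44 at 0Gy and 204 ± 91.3 at 7Gy (SD, n = 4 each). At the floor of 10 it differed by 0.62 on the log2 scale (standard error 0.35, limma adjusted p = 0.282, and 0.259 at the floor of 100), with a 95% interval from −0.19 to 1.42. The two-sided exact permutation test gave p = 0.143. The log2 fold change depended on the scaling, from −0.64 with no scaling and −0.10 with normexp background correction to 1.80 with the 75th percentile and 2.38 with labelling spike-in scaling. Without single arrays it lay between 0.37 (without 7Gy replicate 1) and 0.92 (without 7Gy replicate 4).

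Before scaling, miR-205-5p gave 313, 273, 116 and 129 on the 0Gy arrays, against 72.4, 443, 50.4 and 133 on the 7Gy arrays. The 2 lowest of the 8 values were thus those of 7Gy replicates 1 and 3, which became the 2 highest after multiplication by 4.33 and 4.63. 7Gy replicate 2 was the highest before scaling and 1.36 times the highest 0Gy value after it. With the 3 arrays of out-of-range labelling left out, and 7Gy replicate 2 as the single irradiated array, the log2 fold change was 0.46. This fit takes its spread from the 4 non-irradiated arrays alone, so that no call is read from it. Their scaled values of miR-205-5p had an SD of 0.017 on the log2 scale, against a median of 0.65 over the 178 miRNAs detected and above 10 on all 8 arrays, and 1 of these 178, counting miR-205-5p, had an SD that small. This comparison was chosen after the values were seen. At 7Gy the SD was 0.71, against a median of 0.85. Slide row 1 alone gave a log2 fold change of 0.90 and slide row 2 alone 0.33. Relative to the median of all miRNAs it lay between −0.56 and 1.25 under the 8 settings of scaling or background correction, below it under 3 of them.

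Both probes of miR-205-5p stood clear of background on all 8 arrays, with every spot well above it. The probe ratio was 1.25 to 1.73. On 0Gy replicates 1 to 4 the brighter probe had mean spot signals of 714 ± 29.5, 598 ± 19.4, 245 ± 11.7 and 274 ± 10.2 (SD over spots). The irradiated arrays, in the same order, gave 197 ± 11.3, 972 ± 45.9, 135 ± 4.02 and 261 ± 18.9 (SD over spots). Log2 fold changes of the probes were 0.91 (standard error 0.67) and 0.74 (standard error 0.67), with adjusted p of 0.388 and 0.444 from limma.

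Detection of the miR-200 members was set beside the labelling spike-in of each array. On the 3 arrays with the spike-in out of range (log10 signal of 1.95 to 2.31), 1 of 15 pairs of a miR-200 member and an array was detected, namely miR-141-3p at 2.62 on 7Gy replicate 4. On the 4 arrays at 3.35 to 3.68, 19 of 20 were. Among these, 0Gy replicate 4 and 7Gy replicate 2 had nearly the same labelling signal, 3.37 and 3.35, but differed in the signals before scaling. miR-141-3p gave 2.47 on 0Gy replicate 4 and 169 on 7Gy replicate 2, and miR-200b-3p 5.95 and 121. On 0Gy replicate 3, at 2.73, miR-141-3p gave 26.8, miR-200c-3p 4.33, and the other 3 were not detected. 7Gy replicate 4, with a labelling signal of 1.97, had 567 miRNAs detected, and 0Gy replicates 3 and 4 had 531 and 541. miR-205-5p before scaling was 132.7 on 7Gy replicate 4 and 129.3 on 0Gy replicate 4. The part of labelling in the miR-200 values was not tested beyond the settings given above.

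**Figure D4:**
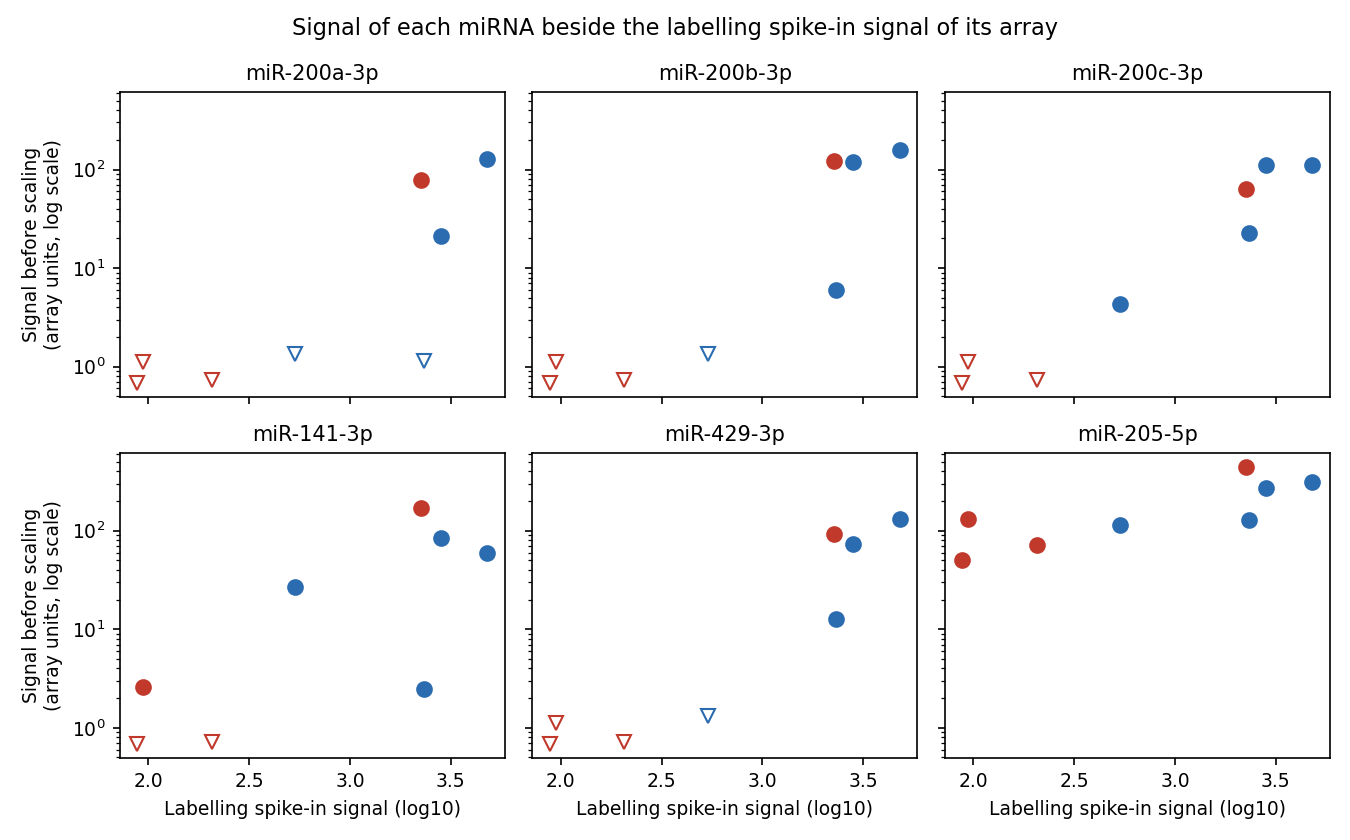
Signal of each member before scaling (y axis, log scale, array units) against the labelling spike-in signal of its array (x axis, log10), with 0Gy in blue and 7Gy in red. Open triangles are arrays where the miRNA was not detected, drawn at the lowest signal of any detected miRNA there. The 3 irradiated arrays at 1.95 to 2.31 hold triangles for all miR-200 members except miR-141-3p on 7Gy replicate 4, and miR-205-5p is detected along the whole axis.

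The opposite arms of the hairpins, which are mostly degraded after processing, were near or under detection. Of 48 pairs of an arm and an array 5 were detected. miR-200a-5p had signals before scaling of 1.97 on 0Gy replicate 1, 8.33 on 7Gy replicate 2 and 4.26 on 7Gy replicate 4. miR-200b-5p had 1.91 on 0Gy replicate 1 and 4.10 on 7Gy replicate 2. miR-200c-5p, miR-141-5p, miR-429-5p and miR-205-3p were detected on no array. On 7Gy replicate 4 miR-200a-5p was detected and miR-200a-3p was not. None of the 6 arms lay above the floor of 10 on any array, so that none was tested.

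Other epithelial miRNAs gave a mixed picture with the same irradiated array standing out. Of 12 on a list of further epithelial miRNAs, 7 were tested, 0 were called by limma at the floor of 10, and 5 had a lower mean at 7Gy, with a median log2 fold change of −0.91. Over all 513 miRNAs 5.46% were called, 33.3% had a lower mean and the median was 0.34. The 5 lower ones were not detected on 7Gy replicates 1, 3 and 4, and lay on the floor there. miR-375-3p, which is abundant in islet and gut endocrine cells, was detected on all 8 arrays like miR-205-5p and had a log2 fold change of 1.32 (adjusted p = 0.103). Its scaled signals were 129, 115, 129.9 and 129.8 in the 0Gy group and 470, 457, 362 and 126 in the 7Gy group. Before multiplication by 4.33 and 4.63, 7Gy replicates 1 and 3 had 109 and 78.2, below every non-irradiated array (122 to 330). Only 7Gy replicate 2, with 1208, exceeded that range without scaling, and 7Gy replicate 4 lay inside it with 167. After scaling, 7Gy replicate 4 was the lowest irradiated array for both miR-375-3p and miR-205-5p. The intestinal and liver miRNAs miR-192-5p, miR-194-5p and miR-215-5p had −1.45, −1.29 and −1.35 (adjusted p = 0.485, 0.140 and 0.291 from limma). Of the irradiated arrays, 7Gy replicate 2 was the only one to detect any of them.

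Of the 6 mesenchymal miRNAs, which are abundant where the miR-200 family is scarce, all were tested and 0 were called by limma at the floor of 10, against 5.46% of all 513 miRNAs. Their median log2 fold change was −0.48, against 0.34 over all. The smooth muscle miRNA miR-145a-5p was at 15.9, 13.0, 25.5 and 30.0 in the 0Gy group and at 105, 13.1, 312 and 181 in the 7Gy group. After scaling it was thus higher on the 3 irradiated arrays on which the miR-200 members were dark. Before multiplication by 4.33, 7Gy replicate 1 had 24.3, inside the range of the non-irradiated arrays (23.9 to 40.8). 7Gy replicates 3 and 4 had 67.5 and 239, above that range without scaling too. The log2 fold change of miR-145a-5p was 2.24 (adjusted p = 0.169 from limma), and that of miR-214-3p was 1.27 (adjusted p = 0.151). miR-143-3p, from the same primary transcript as miR-145a, had −0.54 and miR-199a-3p had −0.43, and of the irradiated arrays only 7Gy replicate 2 detected either. Loss of detection on 7Gy replicates 1, 3 and 4 was seen on both lists.

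The serum itself was checked with 8 miRNAs of blood cells, endothelium and liver. All 8 were detected on each 0Gy array and on 7Gy replicate 2, and 3 of 8 on 7Gy replicates 1, 3 and 4. Their summed scaled signal ran from 16973 to 82922 at 0Gy and from 7329 to 25845 at 7Gy. Red cell miRNAs also differed within the 0Gy group. On 0Gy replicates 1 to 4, scaled miR-451a was 67369, 39046, 2762 and 5570, and miR-16-5p 6893, 4356, 63.2 and 68.3. Scaled miR-486a-5p went the other way, with 6501, 8009, 34551 and 10752. The red cell miRNAs miR-486a-5p, miR-451a and miR-16-5p had log2 fold changes of −0.46, −6.62 and −4.32 and did not pass (adjusted p = 0.674, 0.115 and 0.251 from limma). The leukocyte miRNA miR-142a-3p fell by 4.38 on the log2 scale (adjusted p = 0.0448 from limma). It was the only one of the 8 called, against 5.46% of all 513 miRNAs. At the floor of 100 miR-142a-3p had −1.86 and was not called (adjusted p = 0.0601 from limma). Of the irradiated arrays only 7Gy replicate 2 detected it, at a scaled signal of 91.5 against 168 to 887 at 0Gy. The part of blood cell miRNAs in the miR-200 values was not tested.

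**Figure D5:**
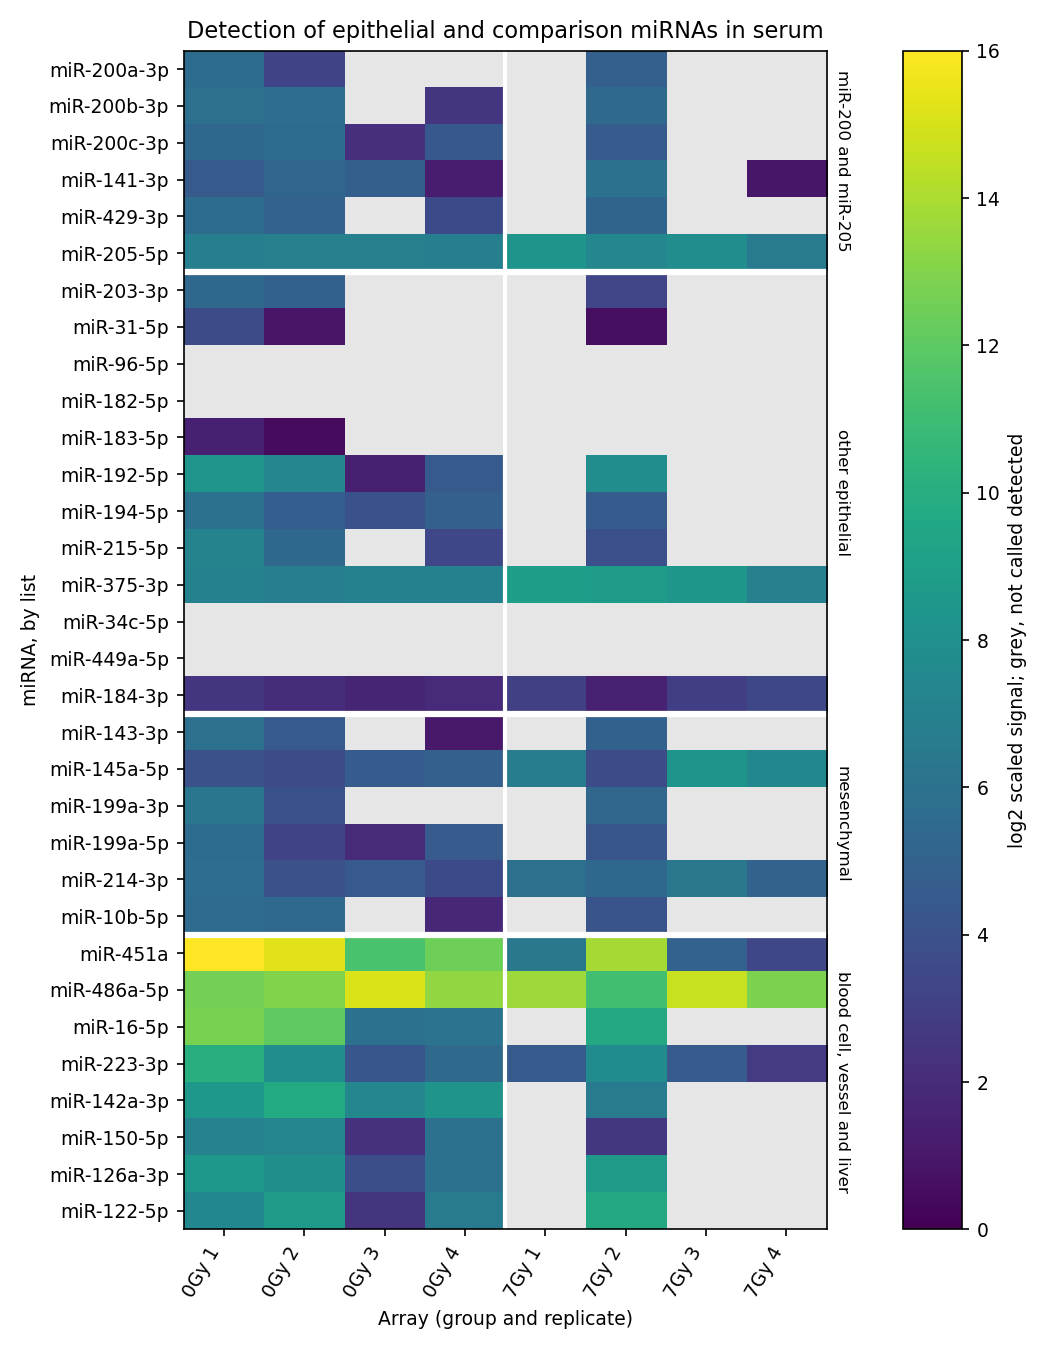
Log2 scaled signal (colour) of the members and of the 3 comparison lists (rows) on each array (columns), with grey where a miRNA was not called detected. Among the 7Gy arrays, the miR-200 rows are coloured on replicate 2 and, for miR-141-3p, on replicate 4. Coloured on all 8 arrays are miR-205-5p, miR-375-3p, miR-184-3p, miR-145a-5p, miR-214-3p, miR-451a, miR-486a-5p and miR-223-3p.

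The profiles of the members over the 8 arrays were compared with each other and with the 492 miRNAs detected on at least 4 arrays. The measure was the mean absolute difference of log2 signals (floor of 10) after each miRNA was centred on its own mean, as a description without a test. Pairs with the same seed had a median difference of 0.33 (4 pairs, 0.23 to 0.81), and pairs with different seeds 0.54 (6 pairs, 0.36 to 0.70). Pairs from the same gene cluster had 0.46 (4 pairs, 0.23 to 0.70) and pairs from different clusters 0.51 (6 pairs, 0.32 to 0.81). These ranges overlapped. The closest pair was miR-200b-3p with miR-429-3p, which share both seed and cluster, at 0.23. miR-200c-3p and miR-141-3p, which share a cluster but not a seed, differed by 0.70. miR-205-5p differed from the miR-200 members by 0.80 to 1.25.

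Over all miRNAs, the nearest profile to miR-200b-3p was that of miR-199b-5p at 0.17, before miR-429-3p at 0.23 and miR-99a-5p at 0.28. For miR-429-3p they were miR-143-3p at 0.18, miR-195a-5p at 0.21 and miR-200b-3p at 0.23. For miR-200c-3p they were miR-125a-5p at 0.23, miR-340-5p at 0.24 and miR-10b-5p at 0.28. miR-141-3p had miR-200b-3p at 0.49, miR-429-3p at 0.53 and miR-1957a at 0.54. miR-205-5p had miR-191-3p at 0.15, miR-6240 at 0.16 and miR-129-1-3p at 0.17. miR-200a-3p, detected on 3 arrays, was not ranked. The values at the floor, which each miR-200 member shares with every other miRNA not detected on 7Gy replicates 1 and 3, enter these differences.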

How the data were processed

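RNA of 4 non-irradiated and 4 irradiated sera was hybridised by the authors to 1-colour Agilent miRNA arrays (1 slide). The deposited intensity values are Feature Extraction output (version 11.5 in the submitters' processing notes, 11.5.1.1 per the file headers): background-subtracted spot signals, and a total per miRNA of 0.1 where it was not called detected, with no normalization between arrays. The deposited flags of other kinds (detection, spots well above background, spike-in range) were used as given. From there each array was scaled to the geometric mean (35.6) of the 90th percentiles over 1881 miRNAs, and values under 100 (as in the methods, read as a floor) or under 10 were set to that floor before log2. miRNAs detected on at least 3 of 8 arrays and not at the floor on all were tested with limma's lmFit and eBayes (limma 3.58.1, R 4.3.3) and Benjamini-Hochberg adjustment over all of them, and single values with exact permutation tests (scipy 1.17.1). Probe signals (mean spot signal times number of spots) were fitted likewise at a floor of 5. The fits were also run on simulated data with planted changes and independent noise. This simulation had no floor, no undetected values and no labelling loss, so that it does not speak to these. The number of arrays limits the precision. Alternatives covered scaling, floors, background (normexp, offset 50), filters, variance prior, array weights, blocks, labelling spike-ins, the methods' t-test and leaving out each array. miRNAs named beyond the 6 members were the opposite arms, of each comparison list those called or, if fewer than 3, the 4 of highest mean signal, and the 3 nearest profiles of each member detected on at least 4 arrays. Others named were chosen after their values were seen. The members, lists and tests were chosen with earlier results of these data known. Python 3.11.15 and matplotlib 3.10.9 drew the figures.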

Additional observations from a re-analysis of the deposited data

Results flagged for a closer look

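In 6 of 12 groups of 4 arrays, 1 array lay apart from the other 3 by the whole range of the group (a gap of 1 on Dixon's scale at the floor of 10). In 5 of these the array was 7Gy replicate 2, at scaled signals of 29.6 for miR-200a-3p, 45.9 for miR-200b-3p, 24.1 for miR-200c-3p, 63.9 for miR-141-3p and 35.1 for miR-429-3p. In the sixth it was 0Gy replicate 1, at 50.1 for miR-200a-3p. The other 3 arrays lay at the floor in each case, which makes the gap equal the range by construction. Chance picks out about 1 in 20 groups of values with no floor, a share with which these 6 groups cannot be compared, and 5 of them share 7Gy replicate 2.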

How the results depend on the processing

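Over 236 alternatives to 9 fold changes (6 members at the floor of 10, miR-205-5p at the floor of 100 and the 2 probes of miR-200c-3p), 206 kept direction and side of the threshold, 12 passed where the reported value did not, and 18 reversed. Array weights, whose fit stopped before convergence, called 1 member at the floor of 100, against 36.1% of all miRNAs tested there. At the floor of 10 they called 2 (miR-205-5p higher, miR-200c-3p lower), against 53.4% of all. All 12 probes were called, against 73.5% of all probes. Keeping only arrays whose labelling spike-ins were in range left 1 irradiated array and gave miR-205-5p a log2 fold change of 0.46 at either floor. For the probes, labelling spike-in scaling called 1 (3.25% of all probes), the methods' t-test without adjustment at 1.5-fold called 2 (19.6%), and leaving out single arrays gave 0 to 5, with 5 without 7Gy replicate 2. With the replicate number as a block 4 of the 12 probes were called, all lower (6.71% of all probes), among them both of miR-200c-3p (adjusted p = 0.0017 and 0.000744, limma), and 0 members at either floor. The labels do not say what a shared number stands for. The correlation of deviations was −0.41, 0.55, 0.58 and 0.46 for numbers 1 to 4, and 3 of 4 correlated best with their own number, a hint from the data for 3 numbers but not for number 1, so that the fit without the block was kept. Counts over all miRNAs moved too: array weights called 61 higher and 14 lower at the floor of 100 and 205 and 69 at the floor of 10, against 4 and 4 and 9 and 19. Reversed values of miR-205-5p were −0.28 (floor of 100) and −0.64 (floor of 10) with no scaling and −0.10 with normexp. Those of miR-141-3p were 0.0098 with a floor of 20, 0.73 with the labelling spike-in covariate, 0.12 with labelling spike-in scaling and 1.52 on the arrays in range. miR-200a-3p had 1.00 with the covariate, 0.092 with labelling spike-in scaling, 0.98 on the arrays in range and, without single arrays, −0.58 to 0.39, with 0.39 without 0Gy replicate 1. miR-200b-3p had 1.02 and 0.94, and miR-429-3p 0.82 and 0.73, with the covariate and on the arrays in range, miR-200c-3p had 0.15 with the covariate, and its dimmer probe 0.098 on the arrays in range. The cause was not tested. Within slide rows 1 and 2 the log2 fold change at the floor of 10 was −1.58 and −0.55 for miR-200c-3p, −1.42 and 0 for miR-200b-3p, −1.13 and −0.12 for miR-429-3p, −0.22 and −0.76 for miR-141-3p and −0.38 and 0 for miR-200a-3p.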
